A study of Mus musculus with 12 samples.

Results

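The dose step from 200 to 800 µM 4-thiouridine (4sU) was measured in methanol-fixed NIH-3T3 cells. It rests on 4 of the 12 libraries of the series, taken by their labels: replicates A and B at 200 µM and replicates A and B at 800 µM. NIH-3T3 is an established line of mouse fibroblasts, given as wild type. The cells of all 4 libraries received 4sU for 2 h, were fixed in methanol and had the conversion chemistry done inside the fixed cells with iodoacetamide. The other 8 libraries are fixed cells without 4sU, and RNA converted in tubes after 0, 200 or 800 µM 4sU, with 2 libraries each. The labels give the tube reaction a lower temperature and a longer time than the other reaction. Nothing in the labels says whether A and B were separate cultures, so every p-value below measures only the spread between libraries, which may be technical. For read counts edgeR took that spread from all 12 libraries together. A single line at a single labelling time limits what the groups stand for.

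4sU is a uridine analogue that cells take up and build into the RNA they make during labelling. Iodoacetamide alkylates it, and reverse transcription then reads the modified base as C, so that a newly made RNA is recognised by T-to-C mismatches in its reads. From these mismatches the authors estimated, for each gene and library, the new-to-total ratio, the share of the gene's RNA made during the 2 h. An RNA with rapid turnover is nearly all new by then, whereas a stable RNA is mostly old. More 4sU per new RNA marks new reads more clearly. High doses are also known to disturb ribosomal RNA synthesis and to activate p53, the transcription factor of the DNA damage and nucleolar stress responses.

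Only T positions can carry the mark, and transcripts differ in how many they offer. The coding stretch below, shown as an example of a transcript with few such positions, comes from the gene with the lowest T share of the longest GENCODE M21 transcript among 695 protein-coding genes with at least 1000 reads in each of the 4 libraries. It is the 90-base coding window, read 5′ to 3′, whose T content is nearest to that of the whole transcript, and capitals mark the T positions.
Rrbp1 coding bases 88 to 177: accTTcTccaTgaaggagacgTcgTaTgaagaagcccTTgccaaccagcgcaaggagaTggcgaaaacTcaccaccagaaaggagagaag
Rrbp1, which encodes a ribosome-binding protein of the endoplasmic reticulum, lies on chromosome 2 at 143947395 to 144011263 on the minus strand (GENCODE M21, GRCm38), and its window holds 11 T against a transcript share of 12.6%. The ratio of Rrbp1 had an interval, from the 0.05 to the 0.95 quantile, 6.34 and 6.79 percentage points wide at 200 µM, against 9.90 and 5.37 in 800 µM A and B. These rested on 1932.5 and 1662 reads at 200 µM and on 1070 and 1641 reads in 800 µM A and B. Library 800 µM A was the widest and 800 µM B the narrowest, an order met again below.

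The 4 libraries held 5840808 to 7762635 reads, and 11080 of 15217 genes were tested for read counts. Library 800 µM A stood apart from the rest. Over the 5982 genes with at least 100 reads in each of the 4 libraries, the differences between A and B in log2 CPM (the read count scaled by library size) had an SD of 0.360 at 800 µM and 0.204 at 200 µM. The counts of A and B differed by more than sampling noise at both doses, with a chi-square per degree of freedom of 22.8 at 800 µM and 6.59 at 200 µM. Library 800 µM A was the highest of the 4 in 33.9% of the tested genes and the lowest in 31.1%, against 22.4% and 24.8% for 800 µM B. Main results for the step between the doses are therefore also given without A. Comparisons with the libraries without 4sU use both 800 µM libraries only. Fibroblast markers were present, led by S100a4, Vim, Sparc and Fn1. The 15 of 16 marker genes in the table summed to 20804 to 21880 CPM at 200 µM and 21547 to 24922 CPM at 800 µM. Of 25 markers of other cell types, 13 were in the table and summed to 18.2 to 19.2 CPM at 200 µM and 20.6 to 23.6 CPM at 800 µM, with 2 at 0 in all 4 libraries, among them Ptprc of white blood cells.

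No gene passed the test of a change in read count between the doses. Of 11080 genes, edgeR's quasi-likelihood test called 0 higher and 0 lower (0% in each direction), with a smallest adjusted p of 0.470, and DESeq2 also called 0. Without adjustment 872 genes (7.87%) passed the threshold of 0.05 in edgeR, 529 of them higher at 800 µM and 343 lower. Library 800 µM A was the highest of the 4 in 434 of those 529 and the lowest in 236 of those 343. Both 800 µM libraries lay above both 200 µM libraries in 1768 genes (16%) and below them in 1897 (17.1%). Fitted differences were beyond 2-fold in 125 genes upward and 119 downward, and the median over all genes was 0.01 on the log2 scale. Without library 800 µM B edgeR called 484 genes (348 higher), which then rest on 800 µM A alone, while without 800 µM A it called 0. Without the filter on low counts it called 127 (102 higher), and in 121 of those 800 µM A was the most extreme library. Of these 127, 0 had been removed by the filter, and in 90 the libraries of the doses did not overlap. All 12 genes named next by rank were among the 127, with adjusted p-values in edgeR from 1.36e-05 for Mdm2 to 0.0485 for Gclc. They were ranked by p on these same counts, so passing there is no separate support. The fit without the filter had infinite prior degrees of freedom, against 12.1 with it, so no gene kept a spread of its own.

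The genes with the smallest p upward, none of them past the threshold with the filter, included the p53 regulator Mdm2 and the cytokine gene Clcf1. Mdm2 (chromosome 10, 117688875 to 117710758), the ubiquitin ligase of p53 and itself a p53 target, had 94.9 and 126 CPM at 200 µM and 254 and 148 CPM at 800 µM. Its groups did not overlap, but the gap between the 800 µM libraries was wider than the gap between the doses. The log2 difference was 0.87 (SE 0.20, adjusted p = 0.470 in edgeR), and 0.44 without 800 µM A. Without 4sU Mdm2 had 87.0 and 86.7 CPM. Against these libraries it was 0.34 higher on the log2 scale at 200 µM (adjusted p = 0.523 in edgeR, which called 27 genes higher there, 0.244%). At 800 µM it was 1.21 higher (adjusted p = 0.00394 in edgeR, which called 86 genes higher, 0.776%). Both comparisons share the libraries without 4sU, and that at 800 µM was not fitted without 800 µM A. A call at 800 µM and none at 200 µM does not test the step between them. Clcf1 (chromosome 19, 4214238 to 4223490), a cytokine of the interleukin-6 family, had 58.9 and 92.2 CPM at 200 µM and 165 and 112 CPM at 800 µM. Its difference was 0.87 (SE 0.20) and 0.58 without 800 µM A.

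The remaining genes ranked upward were Ndufaf8, Eif4ebp2, Nagpa and Cdc42ep4. Ndufaf8, an assembly factor of respiratory complex I, had 131 and 145 CPM at 200 µM and 212 and 196 CPM at 800 µM. Its 800 µM libraries lay closer together than those of the other genes ranked upward, and its difference of 0.56 (SE 0.13) was 0.52 without 800 µM A. Eif4ebp2, a repressor of cap-dependent translation, had 138 and 161 CPM against 251 and 203, a difference of 0.60 and 0.46 without A. Nagpa, an enzyme that finishes the mannose 6-phosphate tag of lysosomal enzymes, had 18.3 and 16.6 CPM against 38.6 and 27.5, a difference of 0.91 and 0.67 without A. Cdc42ep4, an effector of the GTPase Cdc42, had 29.0 and 27.3 CPM against 65.3 and 37.5, so that its 800 µM B value lay nearer to the 200 µM values than to 800 µM A. Its difference of 0.86 was 0.43 without A. In tubes the same dose step was 0.05 for Mdm2 and -0.39 for Cdc42ep4, with the other 4 between -0.44 and -0.08, all on the log2 scale.

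Downward the smallest p belonged to Trmt11, Nufip1, Fstl1, Slc38a2, Gclc and Atp9b, and in 4 of these 6 both 800 µM libraries lay close together. Trmt11 (chromosome 10, 30534225 to 30600749), the catalytic subunit of a tRNA methyltransferase, had 13.9 and 13.1 CPM at 200 µM and 5.54 and 6.53 CPM at 800 µM. The difference was -1.15 on the log2 scale (SE 0.24, adjusted p = 0.470 in edgeR) and -1.03 without 800 µM A. Its libraries without 4sU had 8.45 and 9.28 CPM, which lies between the 2 doses. Nufip1, which takes part in assembling small nucleolar ribonucleoproteins, had 34.4 and 23.0 CPM against 14.4 and 15.6, a difference of -0.94 and -0.87 without A. Its libraries without 4sU, at 35.4 and 37.2 CPM, were above all 4, and 800 µM was 1.27 lower than no 4sU on the log2 scale (adjusted p = 0.00266 in edgeR, which called 209 genes lower there, 1.89%).

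Slc38a2 (chromosome 15, 96687392 to 96699730), a transporter of neutral amino acids, had 247 and 265 CPM at 200 µM and 184 and 172 CPM at 800 µM. The difference was -0.52 (SE 0.12) with all 4 libraries, -0.56 without 800 µM A and -0.48 without 800 µM B, and the tube libraries gave -0.56. Against the libraries without 4sU, at 319 and 327 CPM, it was -0.33 at 200 µM (adjusted p = 0.244 in edgeR, which called 63 genes lower there, 0.569%) and -0.86 at 800 µM (adjusted p = 0.00123). Gclc, the catalytic subunit of the first enzyme of glutathione synthesis, had 41.2 and 35.9 CPM against 22.6 and 25.9, a difference of -0.67 and -0.56 without A. Fstl1, a secreted glycoprotein of fibroblasts, had 808 and 738 CPM against 351 and 547. Its difference moved from -0.78 to -0.48 without 800 µM A. Atp9b, a phospholipid-transporting ATPase, had 45.5 and 47.7 CPM against 22.6 and 35.5, with a difference of -0.67 and -0.38 without 800 µM A.

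**Figure D1:**
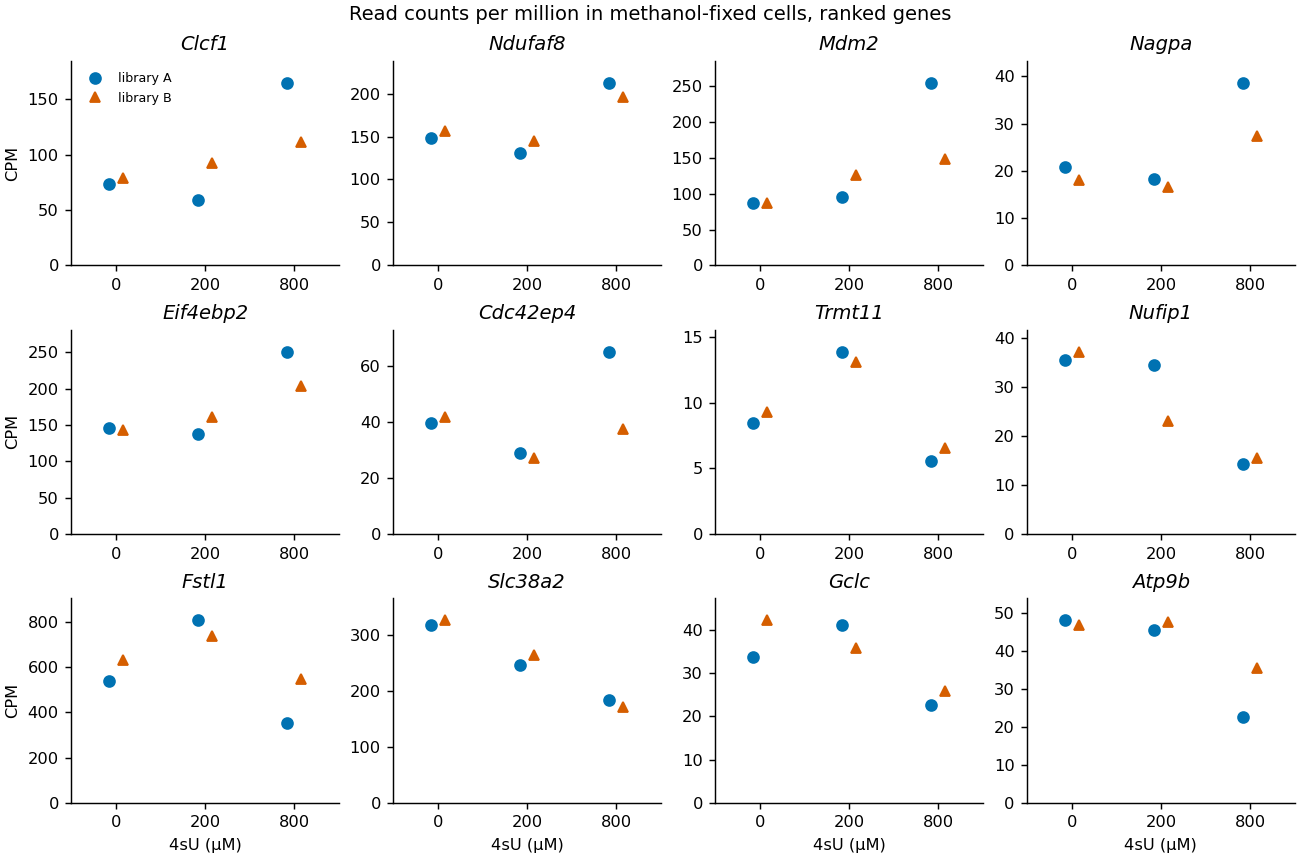
CPM (y axis from 0) in the 6 fixed-cell libraries at 0, 200 and 800 µM 4sU (x axis) for the 6 genes ranked upward and the 6 ranked downward. Circles are library A and triangles library B. In Mdm2 and Cdc42ep4 the 800 µM A circle lies far above its triangle, whereas in Trmt11, Nufip1 and Slc38a2 both 800 µM points lie close together below both 200 µM points.

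Genes fixed to be shown whatever their values gave no common direction. Actb, of cytoplasmic actin, had 12284 and 10808 CPM at 200 µM and 7999 and 9325 CPM at 800 µM, a difference of -0.41 (SE 0.14, adjusted p = 0.529 in edgeR). Gapdh, of glycolysis, had 330 and 333 CPM against 512 and 274, so its sign was that of 1 library: 0.24 with all 4 and -0.26 without 800 µM A. Cdkn1a, the p53-induced cell cycle inhibitor, had 251 and 271 CPM against 255 and 332, a difference of 0.17 that was 0.36 without 800 µM A and -0.03 without 800 µM B. Malat1, a nuclear long noncoding RNA, had 630 and 515 CPM against 688 and 610, a difference of 0.18 and 0.11 without A. Myc had 30.9 and 21.7 CPM against 15.2 and 25.3, and its difference of -0.37 was -0.04 without A. Fos had 2.81 and 2.16 CPM against 1.23 and 1.00, a difference of -1.15 with an SE of 0.74, and -1.28 without A.

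Among the gene lists, cytosolic ribosomal proteins, heat shock proteins and glycolysis lay higher at 800 µM with library A and not without it. None of their members passed the test. The 83 ribosomal protein genes had a median log2 difference of 0.24, which was -0.04 without 800 µM A and 0.43 without 800 µM B, beside 0.01 for all genes. Both 800 µM libraries were above both 200 µM libraries in 4 of these 83 and below in 2, against 16% and 17.1% of all genes. Rps23, of the small ribosomal subunit, had 1410 and 1741 CPM against 4350 and 1688. Rps19 had 1395 and 1668 CPM against 3628 and 1626, and Rpl11, of the large subunit, 1961 and 2542 CPM against 4105 and 2681. Library 800 µM B thus lay within or just above the 200 µM range in these genes. The 17 heat shock genes had a median of 0.16, and -0.05 without 800 µM A. Hspa8, the constitutive cytosolic chaperone, had 391 and 430 CPM against 869 and 365, and its difference of 0.59 was -0.16 without A. Hspb8, a small heat shock protein, had 185 and 164 CPM against 413 and 211, and its difference of 0.84 was 0.29 without A. The 20 glycolytic genes had a median of 0.15, and -0.06 without A. Pfkl, of the committed step, had close 800 µM libraries, at 64.8 and 81.6 CPM against 128 and 114, with 0.72 (SE 0.21) and 0.65 without A. The 57 oxidative phosphorylation genes had a median of 0.09, and 0.02 without A. Ndufa5 of complex I had 72.9 and 94.6 CPM against 260 and 88.9, and its difference of 1.05 was 0.10 without A.

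The p53 targets and the interferon genes kept a similar median without 800 µM A, but the p53 targets lost it without 800 µM B. Of 25 p53 targets tested, 7 were higher in both 800 µM libraries and 2 lower, against 16% and 17.1% of all genes, and none passed the threshold. Their median was 0.13, with 0.12 without 800 µM A and -0.01 without 800 µM B. Aen, a p53-induced nuclease, had 61.1 and 71.1 CPM against 117 and 83.4, a difference of 0.60 (SE 0.18) and 0.35 without A. Gtse1, expressed in G2 and S phase, had 33.9 and 38.9 CPM against 107 and 41.3, and its 1.02 was 0.20 without A. Sesn2, a stress-induced regulator of growth signalling, had 8.42 and 5.61 CPM against 8.62 and 12.9. It was named for another list, the 23 integrated stress response genes tested. Their median was -0.005, with 3 higher and 5 lower, against 16% and 17.1% of all genes. Of 11 interferon response genes tested, 4 were higher and 1 lower, against 16% and 17.1% of all genes, with a median of 0.26 and 0.21 without A. Their median for the same step in tubes was -0.33, against 0.16 for the p53 targets. The interferon genes named have low counts: Stat2, a transducer of type I interferon, had 1.74 and 1.73 CPM against 1.85 and 4.02, and Ddx58, the RNA sensor RIG-I, 2.81 and 3.17 CPM against 5.13 and 4.18.

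Matrix genes had more members lower than higher. Of 38 genes of extracellular matrix and secreted proteins, 10 were lower in both 800 µM libraries and 3 higher, against 17.1% and 16% of all genes, with a median of -0.03 that became 0.03 without 800 µM A. Dcn, the collagen-binding proteoglycan decorin, had 261 and 273 CPM at 200 µM and 172 and 166 CPM at 800 µM. Col3a1, of type III collagen, had 99.0 and 101 CPM against 65.7 and 70.0. Both had 800 µM libraries close together, and their differences of -0.66 (SE 0.18) and -0.56 (SE 0.15) were -0.67 and -0.50 without A, with adjusted p = 0.470 for each in edgeR. Thbs1, of the matrix glycoprotein thrombospondin 1, had 202 and 202 CPM against 128 and 174, and its difference of -0.41 was -0.20 without A. Dcn and Col3a1 also stand among the 15 fibroblast markers, of which 6 were lower and 3 higher in both 800 µM libraries, against 17.1% and 16% of all genes, with a median of -0.14 and -0.06 without A. In bulk libraries fewer cells of a kind and less RNA per cell cannot be told apart. Thy1, a surface marker of fibroblasts, was higher at 800 µM, at 371 and 350 CPM against 535 and 459.

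Lists tied to the label itself and to nucleolar and nuclear RNA had small medians that moved with the library left out. Their counts of members higher and lower in both 800 µM libraries stand beside 16% and 17.1% of all genes. The 19 genes of uridine uptake, salvage and pyrimidine synthesis had a median of -0.01, which was -0.13 without 800 µM A, with 4 higher and 4 lower. Tk1, thymidine kinase, had 284 and 379 CPM against 471 and 420, and Slc29a1, the nucleoside transporter ENT1, 28.1 and 35.5 CPM against 21.6 and 27.1. The 41 nucleolar and ribosome biogenesis factors had a median of 0.04, with 8 higher and 9 lower, and -0.09 without 800 µM A. Among them Noc2l had 147 and 148 CPM against 95.3 and 119, and Utp14a 23.8 and 25.5 CPM against 17.4 and 17.2. The 39 immediate early genes, which respond fastest to growth and stress signals, had a median of 0.02, and 0.04 without A, with 7 higher and 4 lower. The 5 small nucleolar RNA host genes tested had a median of 0.12, which was 0.01 without A and 0.29 without B. The 6 nuclear long noncoding RNAs tested had -0.04, which was 0.09 without A and -0.11 without B. The 278 Zfp genes had a median of 0.02, and -0.0014 without A. Replication-dependent histones, with 22 tested, had -0.05, and -0.01 without A. Every list had 0 genes past the threshold.

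**Figure D2:**
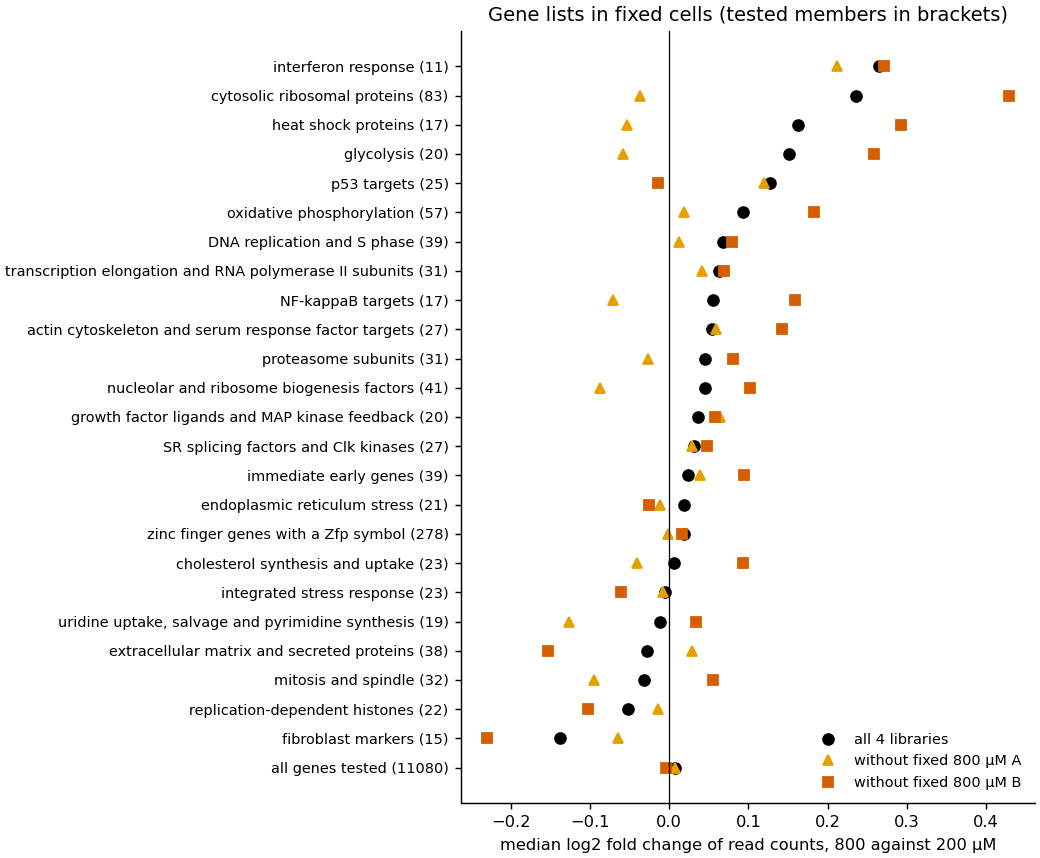
Median log2 fold change of read counts, 800 against 200 µM in fixed cells (x axis), of each list with at least 10 tested members and of all genes. Black circles use the 4 libraries, orange triangles leave out 800 µM A and red squares leave out 800 µM B. Ribosomal proteins move from 0.43 to -0.04 between the 2 left-out settings, while the median of all genes stays near 0.

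The new-to-total ratio was lower at 800 µM over most genes, and more so in library A. Over 5982 genes the median ratio was 35.6% and 34.8% at 200 µM and 25.8% and 32.0% at 800 µM. Both 800 µM libraries were below both at 200 µM, but the gap between the 800 µM libraries was larger than the gap from 800 µM B to either 200 µM library. The group means were 35.2% ± 0.598 and 28.9% ± 4.40 (SD, n = 2), with an exact permutation p of 0.333, two-sided, the smallest that 2 against 2 allows. On the logit scale (log odds of the ratio) the median gene was 0.49 lower in 800 µM A and 0.15 lower in 800 µM B than the mean of the 200 µM libraries, and 0.32 lower over both. The value was lower in 88.7% of genes in A and in 70.3% in B. The tube libraries gave -0.20 and -0.19 for the same step, from medians of 40.025% and 42.6% to 36.3% and 36.5%. The values of the 2 fixed 800 µM libraries thus lay on either side of the tube values. Weighting genes by their reads, new RNA made up 28.0% and 26.4% at 200 µM and 19.9% and 25.2% at 800 µM. Both 800 µM values were below both 200 µM values in 2784 genes (46.5%) and above in 139 (2.32%). In tubes, over 5532 genes, the same counts were 2469 (44.6%) and 344 (6.22%).

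**Figure D3:**
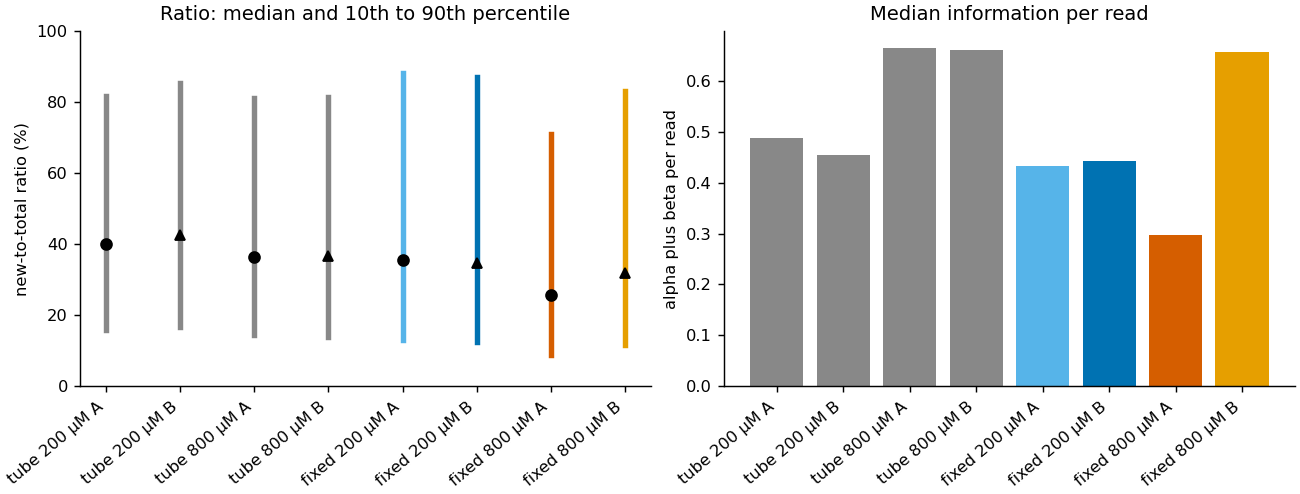
Left, the new-to-total ratio (%) in the 8 libraries with 4sU, as the median (black point) and the 10th to 90th percentile (bar) over 5982 genes. Right, the median of alpha plus beta per read, explained below, as bars from 0. Fixed 800 µM A has the lowest median ratio, 25.8%, and the lowest value per read, 0.297, while fixed 800 µM B has 0.657 per read, close to 0.665 and 0.662 in the tubes at 800 µM.

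Genes with rapid turnover had the larger logit differences in both libraries. Genes were grouped into quintiles by their mean ratio in the 4 tube libraries, which are not among the libraries compared. From the lowest to the highest quintile the median logit difference of 800 µM A went from -0.33 to -1.18, and that of 800 µM B from -0.09 to -0.36. In percent, the lowest quintile had medians of 13.3% and 12.9% at 200 µM and 9.55% and 12.3% at 800 µM. The highest had 88.2% and 87.1% at the lower dose, against 70.5% and 82.85%. In tubes the same step went from -0.16 to -0.25 in A and from -0.17 to -0.21 in B. Read counts showed little of such a gradient: the median log2 difference was 0.09 in the lowest quintile and -0.04 in the highest, or 0.03 and -0.03 without 800 µM A.

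**Figure D4:**
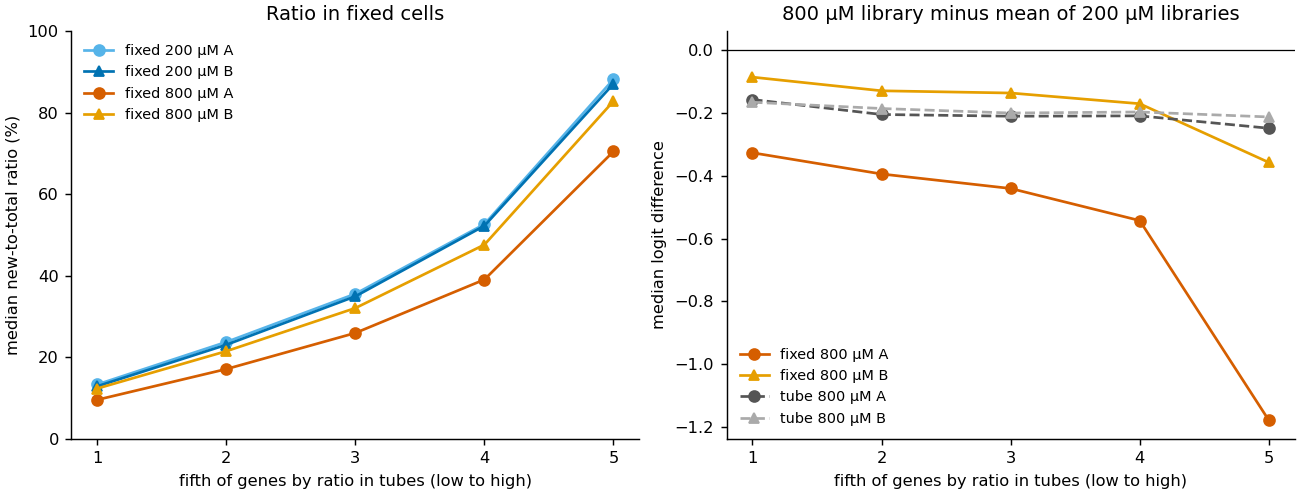
Left, median new-to-total ratio (%) in the 4 fixed-cell libraries for 5 equal groups of genes ordered by their ratio in tubes (x axis). Right, the median logit difference of each 800 µM library from the mean of the 200 µM libraries of its procedure, with tubes dashed. Fixed 800 µM A falls away furthest, to -1.18 in the last group, and fixed 800 µM B reaches -0.36.

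Several lists of short-lived RNAs had logit differences below the -0.32 of all genes, but not every list of high ratio did. The 5 small nucleolar RNA host genes, with medians of 47.0% and 59.9% at 200 µM, had -0.17, and 2 histone genes, with 80.3% and 77.3%, had -0.03. No test of this order was run. The 27 immediate early genes with enough reads had median ratios of 100% and 100% at 200 µM and 87.5% and 99.3% at 800 µM. Dusp6, a MAP kinase phosphatase, had 100% and 100% against 97.25% and 100%. The 9 NF-kappaB targets had medians of 98.3% and 97.0% against 75.0% and 90.7%. Ptgs2, the inducible cyclooxygenase, had 100% and 100% against 81.25% and 100%, and Nfkbia, the inhibitor of NF-kappaB, 100% and 100% against 77.7% and 100%. In these genes 800 µM B stayed at the upper bound of the ratio and 800 µM A did not. The 10 p53 targets had 84.95% and 86.8% against 65.0% and 80.1%. Mdm2 had 100% and 100% against 83.75% and 99.7%. The 29 mitosis genes had 45.5% and 42.8% against 29.2% and 38.1%. At the stable end, the 83 ribosomal protein genes had 10.3% and 9.96% against 8.57% and 10.5%, so that only A was lower, and the 57 oxidative phosphorylation genes 11.8% and 10.9% against 8.54% and 11.3%. Relative to the median gene the logit difference was 0.22 for ribosomal proteins and -1.27 for immediate early genes, beside -0.03 for all genes tested. For lists at or near the upper bound, such as the immediate early genes, the size of the logit difference depends on how far the ratio is held from its bounds.

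Few single genes passed the test of the ratio, and all of them touched a bound of the estimate. With limma on the logit scale, 1 gene rose (0.0167%) and 18 fell (0.301%) of 5982. In the 18 that fell both 200 µM libraries were at 100%, and the riser was at 100% in both 800 µM libraries. Upf2 (chromosome 2, 5951469 to 6056703), a core factor of nonsense-mediated decay, had 100% and 100% at 200 µM and 46.0% and 74.1% at 800 µM, with 158 to 181 reads. Its logit difference was -6.46 (SE 0.53, adjusted p = 0.0468 in limma). Both 200 µM values were held at the same bound, so they showed no spread. With the authors' mean of the ratio in place of its mode, Upf2 had 97.3% and 96.7% against 47.5% and 73.9%. Its adjusted p in limma was then 0.300. The authors' interval ran from 87.05% to 99.6% and from 85.6% to 99.5% at 200 µM, and from 31.5% to 63.2% and from 61.8% to 84.3% at 800 µM, so its doses did not touch. Kmt2c (chromosome 5, 25271798 to 25498783), a histone H3 lysine methyltransferase, was the riser, with 83.5% and 87.0% against 100% and 100% at 108 to 174 reads (logit difference 5.14, SE 0.41, adjusted p = 0.0468 in limma). The intervals of Kmt2c overlapped: at 200 µM they reached up to 92.9% and 95.9%, and at 800 µM they began at 81.4% and 89.9%. With the mean of the ratio its adjusted p in limma was 0.553.

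The other genes that fell include regulators with short-lived RNAs. Mier1, a transcriptional corepressor, had 100% and 100% against 73.7% and 84.3%. Zfp131, a zinc finger protein, had 100% and 100% against 78.15% and 82.3%. Casc3, of the exon junction complex, had 100% and 100% against 81.9% and 89.0%. Adamts1, a secreted metalloproteinase, had 100% and 100% against 86.3% and 86.0%, with the 800 µM libraries nearly equal. Clk4, a kinase of SR splicing factors, had 93.9% and 92.0% at 800 µM. Cdt1, a licensing factor of DNA replication, had 93.1% and 95.75%. With the mean of the ratio in place of its mode, Clk4 and Cdt1 still passed in limma (adjusted p of 0.0227 and 0.0167). Mier1, Zfp131, Casc3 and Adamts1 did not, with adjusted p-values in limma from 0.282 to 0.553. Measured against the median gene of each library, 27 genes were called in limma, 1 higher (0.0167%) and 26 lower (0.435%), again all at a bound. Rnf139, a ubiquitin ligase, and Arl4c, a small GTPase, passed only this test, with 64.6% and 83.6% and with 68.1% and 90.3% at 800 µM. Ankrd49 passed both, with 72.1% and 85.5% at 800 µM, but neither with the mean of the ratio (adjusted p of 0.553 and 0.879 in limma). Among the 5573 genes at no bound limma called 0 in either test. Holding the ratio at least 0.01 from its bounds also left 0.

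Fewer genes stood at the bound at 800 µM. At 100% stood 284 and 272 of the 5982 genes at 200 µM, 32 in 800 µM A and 130 in 800 µM B. For the 182 genes at 100% in both 200 µM libraries the median was 84.9% in 800 µM A and 99.3% in 800 µM B, and 9 stayed at 100% in both. In tubes the same genes had medians of 94.8% and 97.3% at 200 µM and 94.98% and 95.75% at 800 µM. These 182 were chosen by their 200 µM values, so their lower values at 800 µM carry no test. The authors' intervals give a count that does not rest on the mode, over all 5982 genes, those at the bound included. Intervals of both 800 µM libraries lay wholly below those of both 200 µM libraries in 260 genes (4.35%) and wholly above in 0. Library 800 µM A alone was wholly below both in 1655 genes (27.7%) and 800 µM B alone in 451 (7.54%). Library 200 µM A was wholly below 200 µM B in 237 (3.96%) and wholly above it in 444 (7.42%). That comparison is looser, since an interval had to clear a single other interval and not both. Between the 800 µM libraries, A was wholly below B in 1621 genes (27.1%) and wholly above it in 84 (1.4%).

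Genes ranked higher against the median gene, other than Kmt2c, did not pass the test. They had low ratios that were higher in both 800 µM libraries in 4 of 5. Atpif1, the inhibitor of the mitochondrial ATP synthase, had 9.09% and 9.24% at 200 µM and 11.4% and 12.7% at 800 µM. Npm3, a nucleoplasmin family protein, had 18.75% and 19.4% against 22.2% and 25.6%. Rnaset2a, an acid ribonuclease with a close copy that may share its reads, had 5.38% and 6.20% against 10.0% and 10.45%. Taf10, of the general transcription factor TFIID, had 9.68% and 10.8% against 12.9% and 15.02%. Rps2 had 9.15% and 8.60% against 8.39% and 13.1%. Relative to the median gene Atpif1 was 0.60 higher (adjusted p = 0.296 in limma), the smallest adjusted p of these 5.

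The level of new RNA, CPM times the ratio, was lower at 800 µM for the median gene but for no single gene by test. The median log2 difference over 5982 genes was -0.23, on log2 of the level plus 1. Both 800 µM libraries were below both 200 µM libraries in 2260 genes (37.8%) and above in 317 (5.3%). limma called 0 in either direction (0%), with 399 (6.67%) past the unadjusted threshold of 0.05, 371 of them lower. Ccdc124, a ribosome-associated factor, had the smallest p, with ratios of 22.1% and 21.4% against 6.71% and 9.07% and a new RNA difference of -1.44 (SE 0.27, adjusted p = 0.645 in limma). Its read counts lay close together, at 77.1 and 76.6 CPM against 67.3 and 74.2. Lars, the leucyl-tRNA synthetase, had 9.61% and 10.4% against 4.14% and 5.58%. Ecm1, an extracellular matrix protein, had 12.9% and 14.3% against 6.50% and 5.14%. P4ha2, a collagen prolyl hydroxylase, had 23.9% and 29.85% against 10.1% and 11.2%. Upward, Cyba, a subunit of NADPH oxidase, had 5.66% and 4.66% against 8.84% and 10.3%, and Mtor, the growth-control kinase, 25.1% and 16.8% against 40.9% and 28.4%. For Cyba and Mtor the read counts were higher too, at 28.1 and 35.7 CPM against 51.5 and 37.5 and at 13.8 and 19.3 CPM against 25.5 and 23.3. The new RNA difference of Ccdc124 was -1.20 without 800 µM A and -1.68 without 800 µM B. That of Cyba was 0.89 without 800 µM A and 1.08 without 800 µM B. Each of these values rests on a single 800 µM library.

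The interval of the ratio did not narrow in a common way with dose. Its median width was 9.47 and 9.65 percentage points at 200 µM, 13.8 in 800 µM A and 8.53 in 800 µM B. The means were 9.56 ± 0.127 and 11.1 ± 3.70 points (SD, n = 2), a difference of 1.585 points with an exact permutation p of 1, two-sided, where 0.333 is the smallest possible. Without 800 µM A the difference was -1.03 points, and without 800 µM B it was 4.2 points. Library 800 µM B was narrower than both 200 µM libraries in 76.1% of genes, and library 800 µM A wider than both in 90.9%. The order was the same at matched depth and ratio. Among genes with 200 to 400 reads and a ratio of 20% to 60% in the library concerned, the median width was 13.9 and 13.7 points at 200 µM, 16.8 in 800 µM A and 11.3 in 800 µM B. In tubes such genes had 13.1 and 13.4 points at 200 µM and 11.1 and 11.15 at 800 µM, so that fixed 800 µM B resembled the tube libraries of its dose in width and 800 µM A did not.

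**Figure D5:**
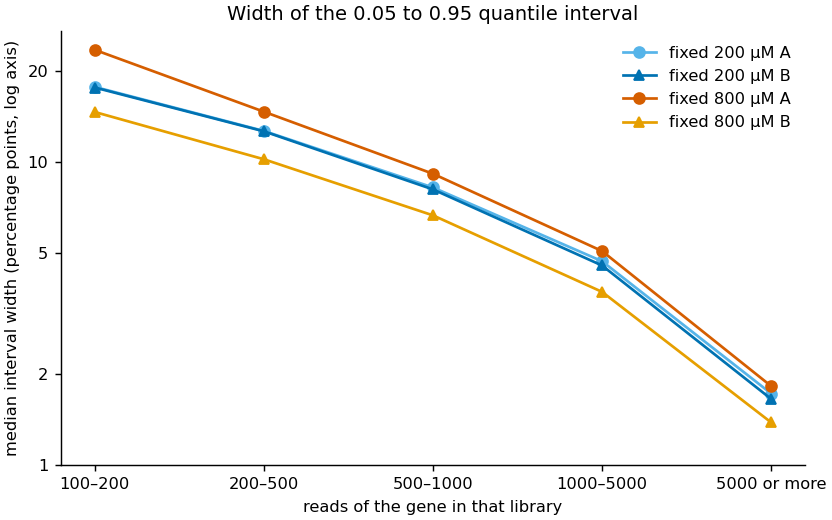
Median width of the 0.05 to 0.95 quantile interval of the new-to-total ratio (percentage points, log axis) by the gene's reads in that library (x axis), one line per fixed-cell library. At every depth 800 µM A is widest and 800 µM B narrowest, for example 14.7 and 10.2 points at 200 to 500 reads, with the 200 µM libraries at 12.7.

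The parameters of the authors' beta distribution give the same comparison per read. Alpha plus beta acts as the number of informative observations behind a ratio, and its median per read was 0.433 and 0.443 at 200 µM, 0.297 in 800 µM A and 0.657 in 800 µM B. In tubes it was 0.488 and 0.455 at 200 µM and 0.665 and 0.662 at 800 µM. It also followed the T content of the transcripts introduced above. For 5976 of the 5982 genes a GENCODE M21 transcript was found, and from the lowest to the highest quintile of T share (8.57% to 22.1%, and 28.7% to 36.9%) the median went from 0.385 to 0.472 in 200 µM A and from 0.395 to 0.481 in 200 µM B. In 800 µM A it went from 0.257 to 0.326, and in 800 µM B from 0.599 to 0.698. The T-richest genes of 800 µM A thus stayed below the T-poorest of either 200 µM library. Rrbp1, shown above for its low T share, had 0.300 and 0.305 at 200 µM, 0.197 in 800 µM A and 0.4735 in 800 µM B. Whether the library features that move together in 800 µM A (read counts, ratio and information per read) share a source was not tested.

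Compared with the same step in tubes, no gene passed the test of a different response in read counts, with 2 libraries per group. edgeR called 0 of 11080 for the difference of the steps (0% in each direction), with a smallest adjusted p of 0.276. DESeq2 also called 0, with a smallest adjusted p of 0.0604. Without adjustment 1073 (9.68%) passed the threshold of 0.05 in edgeR, so smaller differences between the procedures remain possible. For the ratio, limma called 14 of 5532 genes, 3 with a higher step in fixed cells (0.0542%) and 11 with a lower one (0.199%), and 0 among genes at no bound in the 8 libraries. Cdc42ep4 had 100% in all 4 fixed-cell libraries, whereas in tubes it had 100% and 100% at 200 µM and 88.5% and 90.9% at 800 µM. Mier1, in contrast, had 86.9% and 90.05% in tubes at 200 µM and 87.1% and 91.1% at 800 µM, against the lower 800 µM values in fixed cells given above. For Mier1 the difference of the steps was -5.62 on the logit scale (SE 0.41, adjusted p = 0.00567 in limma).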

How the data were processed

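The deposited table gives, per the file headers, read counts of 15217 genes in 12 libraries and the new-to-total ratio in the 8 with 4sU. The deposited counts were treated as estimated counts and rounded, since 16.2% to 22% of the values of a library were not whole. How reads shared between genes were divided is not stated in the labels. The ratio is a deposited fraction with its mode, mean, 0.05 and 0.95 quantiles, and the deposited alpha and beta are scores, the parameters of its beta distribution. The gene length is given by the deposited table but enters no value printed here. The tools cutadapt, STAR 2.7.10b and Bowtie2 2.3.0 are listed without roles per the submitters' processing notes. Build, annotation and ratio estimator: not given in the sources used here. No ratio of libraries without 4sU was used here, so ratios are printed without a background from unlabelled cells.

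Counts were tested with edgeR 4.0.16 (R 4.3.3), quasi-likelihood, TMM scaling, filterByExpr with a minimum count of 10, in 1 fit of 12 libraries, with Benjamini-Hochberg (BH) adjustment at 0.05. The residual degrees of freedom were 6 and the common biological coefficient of variation 12.3%. DESeq2 1.42.0 was the alternative. Ratios (modes) were tested with limma 3.58.1 on the logit scale, held at least 0.001 from 0 and 1, over the 5982 genes with at least 100 reads in each of the 4 libraries, in a fit of those 4. The median-gene test first subtracts each library's median logit. The new RNA level is CPM times the ratio plus a pseudocount of 1. The difference from tubes used 8 libraries and 5532 genes. Widths were compared over libraries by an exact permutation test. Scripts were tested on simulated data.

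Named genes are, among those with a mean count of at least 50 over the 4 libraries, the largest called differences in each direction (up to 12 for counts, 8 for the ratio against the median gene and 6 for new RNA), filled up to 6 by the smallest p where fewer were called. The rule adds the 3 smallest p of each list and, always, Gapdh, Actb, Malat1, Myc, Fos and Cdkn1a. Gene models with Gm or Rik symbols were passed over. Libraries, members and lists were chosen with earlier results of these data known, and genes printed outside this rule were chosen after their values were seen. Coordinates and transcripts are those of GENCODE M21 (GRCm38), matched by gene ID for 15185 of 15217 genes. The printed coding stretch was chosen among genes outside chromosomes 18, X, Y and M. Precision is limited by the 2 libraries per dose.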

Additional observations from a re-analysis of the deposited data

Results flagged for a closer look

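In 14 genes the dose step of the new-to-total ratio differed between fixed cells and tubes by limma's test of the difference itself, on the logit scale, fixed minus tube. The step was lower in fixed cells in 11: Adamts1 (-5.94), Upf2 (-5.93), Mier1 (-5.62), Gpank1 (-5.45), Casc3 (-5.26), Nipal1 (-5.25), Kdm2a (-4.92), Zfp622 (-4.71), Angptl4 (-4.49), Socs5 (-4.42) and Cdt1 (-3.76). It was higher in 3: Cdc42ep4 (4.74), Kmt2c (4.53) and Plaur (4.38). In the 11, both fixed 200 µM libraries stood at the upper bound of 100%. Angptl4, a secreted inhibitor of lipoprotein lipase, went from 100% and 100% to 92.4% and 94.2% in fixed cells, against 80.5% and 84.1% and then 84.4% and 86.3% in tubes. Plaur, the urokinase receptor, had 91.8% and 96.0% against 86.0% and 90.6% in fixed cells, and 100% and 99.85% against 81.4% and 84.15% in tubes. The size of these differences depends on how far the ratio is held from its bounds.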

How the results depend on the processing

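For read counts the 0 calls became 127 without the filter on low counts and 0 to 484 when 1 library was left out (484 without 800 µM B). The prior degrees of freedom were 12.1 with the filter and infinite without it. For the difference from tubes in counts, leaving out 1 library gave 0 to 256 (256 without fixed 800 µM B). A fit of the 4 libraries alone gave 0 for read counts, with a smallest adjusted p of 0.932 in edgeR. The replicate block and the crossed pairing (chosen after seeing the data) gave 0 for read counts. The differences between A and B correlated at -0.11 across genes between the 2 doses in counts and at -0.01 in the ratio. With a single such difference per dose, these values cannot tell whether the letters mark shared cultures or batches.

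The 19 ratio calls became 8 with the posterior mean (7 shared), 0 at a minimum of 50 reads, 5 at 500, 0 with no minimum, 40 in a fit of 8 libraries, 0 when held 0.01 from the bounds, 0 untransformed, 59 with the replicate block and 0 among genes at no bound (chosen after seeing the data), and 0 to 141 leaving out 1 library (141 without 800 µM B, 0 without any other). The 27 calls against the median gene became 7 with the posterior mean, 0 with the replicate block, 3 at 500 reads, 0 at 0.01 and 0 at no bound (the last pair chosen after seeing the data), and 0 to 172 leaving out 1 library (172 without 800 µM B, 46 without 800 µM A, 0 without either 200 µM library). New RNA gave 0 to 1396 and the ratio difference from tubes 0 to 105 when 1 library was left out (105 without fixed 800 µM B, 24 without fixed 800 µM A, 2 without tube 200 µM A, 4 and 0 without tube 800 µM A and B). That difference gave 1 call with the posterior mean, 0 at no bound and 19 with the replicate block. The width difference ran from -1.03 to 4.2 points. Gapdh ran from -0.26 to 0.63 and Cdkn1a from -0.034 (without 800 µM B) to 0.36 on the log2 scale. The cause of these changes was not tested. Of 18 genes named for counts, 2 changed sign in any of 11 settings, and of the 14 for the ratio 0 did. Those of the 14 that were called stood at the upper bound in both libraries of a dose, which left little room for a change of sign. They also have no value at 500 reads or at no bound.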
